A study of Mus musculus with 56 samples.

Results

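The clustered protocadherins are 57 cell-surface adhesion genes of the cadherin superfamily that lie in 3 neighbouring clusters, alpha, beta and gamma. They were taken as every protein-coding gene of the deposited tables whose symbol is Pcdha, Pcdhb, Pcdhga, Pcdhgb or Pcdhgc with a number, or Pcdhac with a number. This gave 14 alpha, 22 beta and 21 gamma genes among the 55386 genes that any of the 3 tables lists. The tables of the astrocyte line and of the Cx3cr1 knockout line list all 57, and that of the Cx3cr1 heterozygous line lists 56, without Pcdhga10. Pcdhgb8, annotated as a polymorphic pseudogene, was left out by the rule. The symbol Pcdha11 stands on 2 gene identifiers, ENSMUSG00000007440 and ENSMUSG00000102206, which are kept apart here. The start of the former lies nearest to that of Pcdha10 in RefSeq, and the start of the latter to that of Pcdha11.

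Neurons carry these proteins on their surface, where a protein binds the same isoform on a facing membrane. Each neuron switches on its own small set of them, chosen promoter by promoter with the help of the DNA-binding factor CTCF and the cohesin complex, and the resulting identity lets the branches of 1 cell avoid each other. In the alpha and gamma clusters each gene has its own large first exon, which encodes the extracellular part and is spliced to constant exons that the whole cluster shares, whereas beta genes are single exons without a constant part. The C-type genes Pcdhac1, Pcdhac2, Pcdhgc3, Pcdhgc4 and Pcdhgc5 stand at the ends of the alpha and gamma clusters and are less subject to random choice.

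The libraries come from mouse barrel cortex at postnatal day 5, collected 24 h after cautery of the right whiskers on day 4, so that 1 hemisphere was deprived of whisker input and the other served as control. Ribosomes carrying the L10a protein fused to EGFP were pulled down with an antibody against GFP, giving a bound fraction that is enriched for RNA under translation in the tagged cells, and an unbound fraction that holds the remaining RNA of the tissue. In the astrocyte line (Aldh1l1::eGFPL10a, no tamoxifen) the Aldh1l1 promoter drives the tag, and each fraction has 5 deprived and 5 control libraries. In the heterozygous line (Cx3cr1CreErt2/+(Litt) Eef1a1LSL.eGFPL10a/+) and the knockout line (Cx3cr1CreErt2/CreErt2(Litt) Eef1a1LSL.eGFPL10a/+) Cre from the Cx3cr1 locus, induced with 50 µg tamoxifen on each of postnatal days 1 to 3, switches the tag on in cells that express Cx3cr1, chiefly microglia. The heterozygous line gave 4 deprived and 4 control libraries per fraction and the knockout line 5 and 5. The mice of the heterozygous line keep 1 working copy of Cx3cr1, the receptor through which microglia sense fractalkine, and those of the knockout line have none. All animals, those of the control groups included, had been cauterised on 1 side, and both hemispheres of a mouse were used in the microglial lines. By this design a control piece is the other hemisphere of a lesioned animal. Some titles of the heterozygous line depart from it, as given below.

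The 56 libraries hold 10.1 to 28.6 M counts (M, mega) in the astrocyte line, 32.8 to 50.7 M for the heterozygous mice and 34.6 to 56.7 M for the knockouts. Levels are given as CPM, counts scaled to a common TMM library size. The tags followed the labels in enrichment and not in purity. Aldh1l1 had 39.8 to 55.7 CPM in bound and 10.8 to 14.1 CPM in unbound libraries of the astrocyte line. Cx3cr1 had 6.52 to 12.4 CPM in bound and 0.835 to 1.91 CPM in unbound libraries of the heterozygous line, and 0.336 to 1.25 CPM and 0.0452 to 0.221 CPM in bound and unbound libraries of the knockout line. Of 20 neuronal marker genes 20 were measured and 0 were at 0 in any line. Their summed level was 13069 to 17118 CPM in bound and 14682 to 16191 CPM in unbound astrocyte-line libraries, 13488 to 19249 and 12894 to 16074 CPM in bound and unbound heterozygous libraries, and 13985 to 17154 and 12867 to 15718 CPM in bound and unbound knockout libraries. The 18 microglial markers summed to 247 to 532 CPM in bound and 41.9 to 60.3 CPM in unbound heterozygous libraries. The summed neuronal level overlapped between fractions in every line. Gene by gene, 5 of the 20 neuronal markers were higher and 13 lower in bound RNA of the astrocyte line, against 31.5% and 27.6% of all genes tested. Their median log2 difference there was -0.33, range -1.11 to 4.21, the last being Nefl. In the heterozygous line 7 were higher and 8 lower, against 31.8% and 30.8% of all genes. In the knockout line 6 were higher and 8 lower, against 31.6% and 30.4%. In such bulk samples fewer cells of a type and less RNA per cell cannot be told apart, and the part of neuronal RNA in the protocadherin counts of bound libraries was not tested.

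In the heterozygous line the titles call both hemispheres of mouse 17 deprived and both of mouse 21 control. Cautery of the right whiskers alone would leave each mouse with a deprived and a control hemisphere, so these titles do not match the lesion. Which is right cannot be told from the labels. The groups follow the titles, so deprived libraries come from mice 14, 15 and 17 and control libraries from mice 14, 15 and 21. The fits treat libraries, not mice, as replicates. With pieces assigned by side letter in their place, 0 genes were called under deprivation in either fraction of this line.

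The clusters lie one after the other on the forward strand of mouse chromosome 18 in build GRCm38, with alpha genes annotated from 36930184 to 37187661, beta genes from 37264938 to 37524479 and gamma genes from 37661793 to 37841873. Annotated exons overlap widely in alpha and gamma. The share of a gene's exonic bases that it has in common with another gene was 48.6% to 93.0% in alpha (median 53.6%) and 31.5% or more in gamma (median 45.2%), up to the whole of Pcdhga10, against 0% in 19 of the 22 beta genes. Of 1225 genes without any unshared base, 1220 had no count in the knockout line's table, so reads on shared bases were not assigned, and the counts of an alpha or gamma gene stand for the bases it alone holds and not for the constant exons. In 8 of these 35 genes, Pcdhgb5 and Pcdhgc5 among them, the unshared bases run beyond the length of the first exon. Pcdhga10, all of whose exonic bases are shared, had 0 to 2 counts per library in the astrocyte line and 0 in the knockout line for this reason, and its level cannot be read from these tables. A second check, on genes whose free bases lie under a gene of the other strand, found no count in 132 of 134, so strand was not used. An antisense gene overlaps exons of 4 alpha, 1 beta and 8 gamma genes, Pcdhgc3 among them. Reads there, like those on other shared bases, were not assigned, and the counts of these genes come from their remaining bases. An antisense overlap named below therefore means fewer counted bases.

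Levels per length set 1 C-type gene at the top of each of the alpha and gamma clusters. Divided by the unshared exonic length, Pcdhgc3 had the highest level of the gamma cluster in each line and fraction, with 25.1 CPM per kb in bound and 18.4 CPM per kb in unbound RNA of the astrocyte line, 8.89 and 9.91 CPM per kb in bound and unbound RNA of the heterozygous line, and 8.99 and 10.1 CPM per kb in bound and unbound RNA of the knockout line. Pcdhgc3 is the C-type gene known from astrocytes as well as neurons, and its cytoplasmic part binds Axin1. Pcdhac2, which serotonergic axons use to space their endings, led the alpha cluster with 6.69 and 9.51 CPM per kb in bound and unbound RNA of the astrocyte line and 5.71 to 5.95 CPM per kb in the 4 means of the microglial lines. Pcdhb16 led the beta cluster in bound RNA with 6.99 CPM per kb (astrocyte line), 4.89 (heterozygous) and 4.78 (knockout). Whole exonic length in place of unshared length left Pcdhgc3 and Pcdhac2 first in their clusters.

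The other C-type genes were far lower, Pcdhac1 and Pcdhgc5 below the medians of their clusters. In unbound RNA of the astrocyte, heterozygous and knockout lines Pcdhgc4, which cortical interneurons need to survive, had 3.29, 2.26 and 2.34 CPM per kb, Pcdhgc5, which is switched on later in postnatal life, had 1.30, 0.662 and 0.682 CPM per kb, and Pcdhac1 had 0.470, 0.312 and 0.295 CPM per kb. Among the other gamma genes Pcdhga3 stood high, at 9.23, 4.93 and 5.43 CPM per kb, and Pcdhgb4 had the lowest level, at 0.722, 0.379 and 0.418 CPM per kb. At the bottom of the beta cluster Pcdhb1 had 0.0401, 0.00965 and 0.0154 CPM per kb and at most 9 counts in a library. At the bottom of the alpha cluster Pcdha11 (ENSMUSG00000102206), which shares 83.2% of its bases, had 0.203, 0.0628 and 0.0754 CPM per kb. Pcdha4, which shares 93.0% of its bases, had at most 17 counts and 0.0737 CPM per kb in unbound RNA of the knockout line. The cluster medians in unbound RNA of the 3 lines were 0.878, 0.485 and 0.473 CPM per kb for alpha, 1.84, 1.01 and 1.01 CPM per kb for beta and 2.07, 1.25 and 1.31 CPM per kb for gamma.

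**Figure D1:**
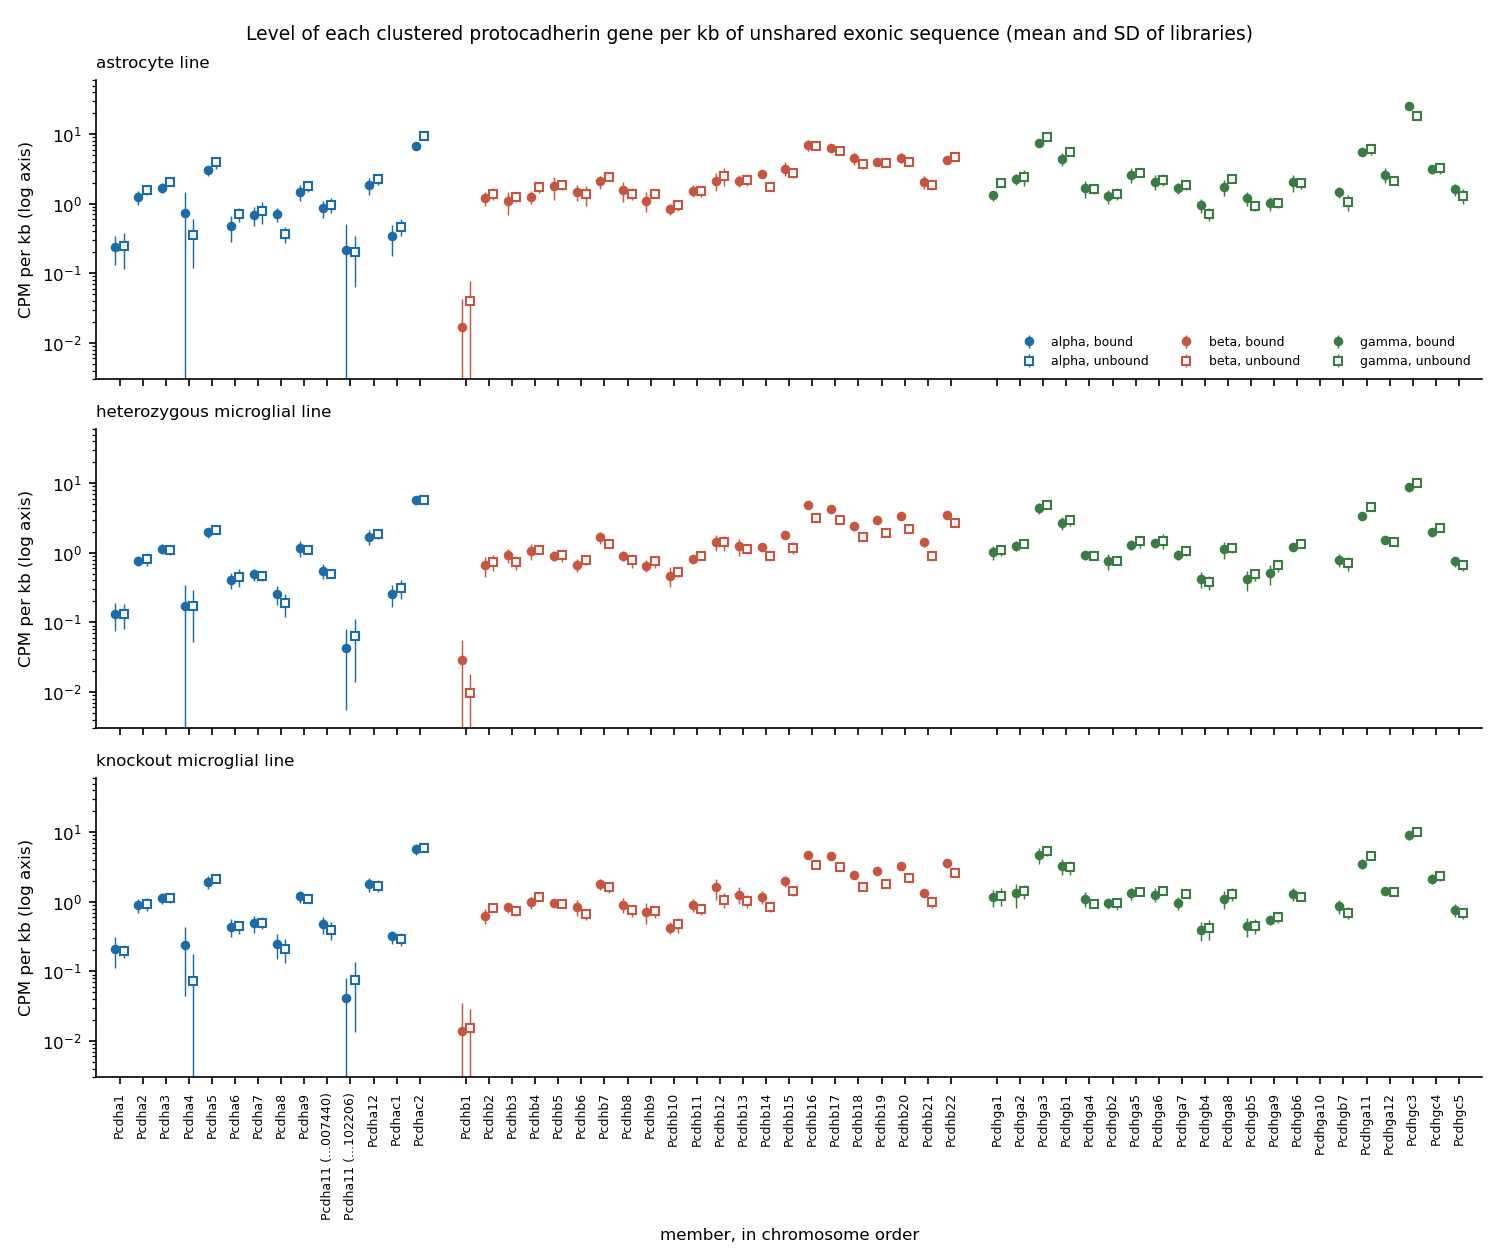
Level of each member in CPM per kb of unshared exonic length (log axis), in bound and unbound RNA of the astrocyte, heterozygous and knockout lines, with genes in chromosomal order. Points are means over the libraries of a line and bars are SD. Pcdhgc3 and Pcdhac2 stand highest in gamma and alpha, the beta genes from Pcdhb14 to Pcdhb22 stand above most of those before them, and Pcdhga10, which has no unshared base, has no point.

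Summed over members, beta genes held the largest share of the protocadherin CPM in every line. In the astrocyte line the beta share was 54.3% ± 2.43 in bound and 51.9% ± 1.62 in unbound RNA (SD, n = 10 libraries each), the gamma share 35.2% ± 2.11 and 34.5% ± 1.19, and the alpha share 10.5% ± 0.45 and 13.6% ± 0.65. In the heterozygous line the mean beta share was 57.9% in bound and 49.0% in unbound RNA, and in the knockout line 57.0% and 48.4%. Of the alpha and gamma genes only reads on unshared bases enter these shares, so they set the clusters against each other by counted reads, not by transcripts.

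Which members were found more on tagged ribosomes than in the remaining RNA was asked by comparing bound with unbound libraries within each line. In the astrocyte line 11 members were higher and 10 lower in bound RNA of the 53 tested, against 59.1% of all 18324 genes tested that were called in either direction (31.5% higher and 27.6% lower). The alpha cluster leaned to the unbound fraction, with 1 higher and 5 lower of 12 and a median log2 difference of -0.29. Of the 21 beta genes 4 were higher and 1 lower (median 0.02), and of the 20 gamma genes 6 were higher and 4 lower (median -0.07). The median over all genes tested was 0.03.

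Pcdhgc3 had 40.7, 46.1 and 52.1 CPM as lowest, median and highest of the 10 bound libraries of the astrocyte line, against 30.7, 33.4 and 36.8 CPM in the 10 unbound libraries. The 2 fractions did not overlap, and bound exceeded unbound in 10 of 10 cortical pieces. Its log2 difference was 0.45 ± 0.05 (SE; adjusted p = 1.8e-09 by edgeR's quasi-likelihood test). Pcdhac2 took the other direction, with 17.6, 20.2 and 23.9 CPM in bound against 25.4, 28.9 and 32.6 CPM in unbound libraries, again without overlap, and was lower in bound RNA in 10 of 10 pieces (log2 difference -0.51 ± 0.06, adjusted p = 1.2e-08). The C-type genes of the astrocyte line therefore differed among themselves. Pcdhgc5 was higher in bound RNA (0.32 ± 0.12, adjusted p = 0.0249; 8 of 10 pieces). Pcdhgc4 had a difference of -0.06 (adjusted p = 0.617) and Pcdhac1 one of -0.50 ± 0.23 (adjusted p = 0.0708; higher in 1 of 10 pieces), and neither passed the threshold of 0.05.

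Among the other members called in the astrocyte line, the most positive log2 differences were those of Pcdha8, Pcdhb14, Pcdhgb7 and Pcdhgb4, and the most negative those of Pcdhga1, Pcdha6, Pcdhb4 and Pcdha5. Pcdhb14 averaged 23.3 ± 3.15 CPM in bound and 15.0 ± 1.85 CPM in unbound libraries (SD, n = 10 each), with no overlap and a log2 difference of 0.64 ± 0.08 (SE; adjusted p = 1.0e-07). It was the only member besides Pcdhgc3 and Pcdhac2 whose bound and unbound libraries did not overlap in this line, 3 of 53, against 21.9% of all genes tested. Pcdha8 averaged 1.75 ± 0.380 and 0.906 ± 0.234 CPM in bound and unbound libraries and was the 1 alpha gene that rose (log2 difference 0.95, adjusted p = 9.3e-05; 9 of 10 pieces). Pcdhgb7 rose by 0.48 and Pcdhgb4 by 0.37 on the log2 scale (adjusted p = 0.0147 and 0.031). Pcdhga1 fell by 0.56, Pcdha6 by 0.55, Pcdhb4 by 0.47 and Pcdha5 by 0.39 (adjusted p = 2.8e-05, 0.0308, 0.00094 and 0.0029), each lower in bound RNA in at least 9 of 10 pieces. Pcdhga1, Pcdha6 and Pcdhgb7 overlap antisense genes. With 1 of the 20 libraries left out in turn, Pcdhgb4 (0.291 to 0.463) and Pcdha6 (-0.714 to -0.474) each lost the call in 6 of 20 fits and Pcdhgc5 (0.259 to 0.381) in 4 of 20.

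**Figure D2:**
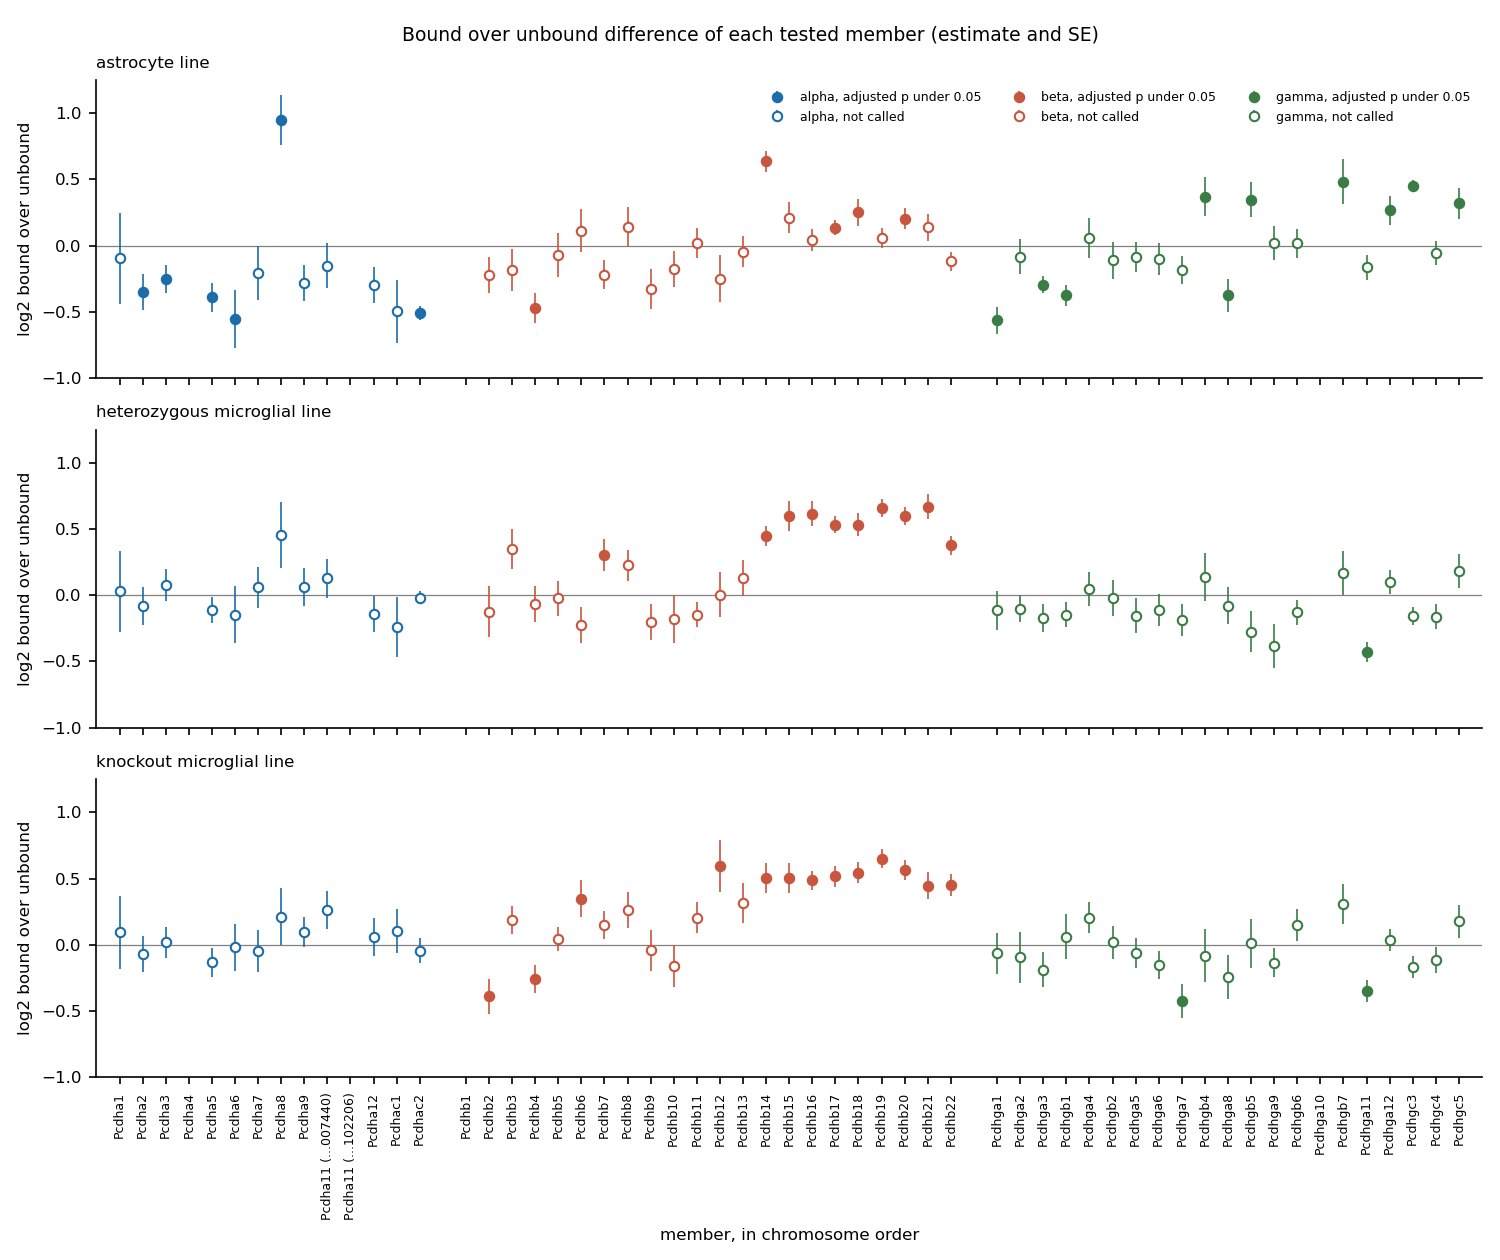
Log2 difference of bound and unbound RNA for each member in the astrocyte, heterozygous and knockout lines, in chromosomal order, with bars for the SE and filled points for members called at an adjusted p under 0.05. In the microglial lines the run from Pcdhb14 to Pcdhb22 lies at 0.38 to 0.67, while Pcdhgc3 is positive in the astrocyte line alone.

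The microglial lines gave another pattern, carried by the beta cluster. In the heterozygous line 10 of 21 beta genes were higher in bound RNA and 0 lower (median log2 difference 0.30), against 0 of 12 alpha genes (median 0.01) and 1 lower of 20 gamma genes (median -0.12). In all, 11 of 53 members were called, against 62.6% of 19275 genes, 31.8% higher and 30.8% lower. In the knockout line 11 beta genes were higher and 2 lower (median 0.35), 2 gamma genes were lower (median -0.07) and 0 of 12 alpha genes were called (median 0.04), 15 of 53 members in all against 61.9% of 19681 genes, 31.6% higher and 30.4% lower. Of the alpha genes 0 also had an unadjusted p under 0.05 in either line, and DESeq2 called 0 as well. The 2 lines had 10 calls in common, 9 higher and 1 lower, which is 66.7% of the 15 in the knockout line and 90.9% of the 11 in the heterozygous line.

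The 9 beta genes from Pcdhb14 to Pcdhb22 were all higher in bound RNA in both microglial lines, by 0.45 to 0.65 on the log2 scale in the knockout line and 0.38 to 0.67 in the heterozygous line, and 4 of the 9 in the astrocyte line. Of those 4, Pcdhb17 lost its astrocyte-line call in 11 of 20 fits without 1 library and under DESeq2, its size factors and no filter, Pcdhb18 in 9 of 20 fits, and Pcdhb20 in 2 of 20 fits and without the filter. The 9 genes form the distal end of the beta cluster, from 37447656 to 37524479. Pcdhb19 had 16.7, 20.3 and 23.9 CPM as lowest, median and highest of the 10 bound knockout libraries and 10.9, 12.7 and 14.9 CPM in the 10 unbound ones. In the heterozygous line it had 17.3, 21.5 and 24.2 CPM in the 8 bound and 12.3, 13.4 and 16.3 CPM in the 8 unbound libraries. Fractions did not overlap in either line, and bound was higher in 10 of 10 and 8 of 8 pieces. The log2 difference was 0.65 ± 0.07 in the knockout line (SE; adjusted p = 3.1e-08) and 0.66 ± 0.07 in the heterozygous line (adjusted p = 6.7e-08).

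Of the remaining distal beta genes, Pcdhb21 had a log2 difference of 0.67, Pcdhb16 of 0.62, Pcdhb15 and Pcdhb20 of 0.60 and Pcdhb22 of 0.38 in the heterozygous line. Pcdhb16, the beta gene with the highest level, averaged 25.6 ± 3.52 CPM in bound and 16.7 ± 2.43 CPM in unbound libraries of that line (SD, n = 8 each). In the knockout line Pcdhb20 (0.57), Pcdhb18 (0.55) and Pcdhb17 (0.52) followed Pcdhb19. No member of this run lost its call in either microglial line when a library was left out.

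Calls outside the run were fewer and smaller. Pcdhb7 was higher in bound RNA in the heterozygous line (0.30 ± 0.12, adjusted p = 0.0331; 6 of 8 pieces), a call lost in 7 of 16 fits that each left out 1 library (0.229 to 0.371). In the knockout line Pcdhb12 (0.60 ± 0.20, adjusted p = 0.0113), which overlaps an antisense gene, and Pcdhb6 (0.35 ± 0.14, adjusted p = 0.0351) were higher, while Pcdhb2 (-0.39 ± 0.13, adjusted p = 0.0137) and Pcdhb4 (-0.26 ± 0.10, adjusted p = 0.0367) were lower. Without 1 library in turn Pcdhb6 (0.245 to 0.405) lost its call in 8 of 20 fits and Pcdhb4 (-0.322 to -0.207) in 11 of 20. The gamma gene Pcdhga11 was lower in bound RNA in both lines, with 4.44 ± 0.708 and 5.63 ± 0.589 CPM in bound and unbound knockout libraries (SD, n = 10 each; log2 difference -0.35, adjusted p = 0.00089) and 4.21 ± 0.253 and 5.67 ± 0.523 CPM in bound and unbound heterozygous libraries (SD, n = 8 each; -0.43, adjusted p = 6.6e-05). It was lower in 10 of 10 and 8 of 8 pieces. Pcdhga7 was lower in the knockout line (-0.42 ± 0.13, adjusted p = 0.0061). Both overlap antisense genes.

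The C-type genes of the microglial lines stayed within the threshold. Pcdhgc3 had 14.7, 16.2 and 17.7 CPM in the 8 bound and 13.3, 18.5 and 19.7 CPM in the 8 unbound heterozygous libraries, which overlap (log2 difference -0.16 ± 0.07, adjusted p = 0.0536). In the knockout line its difference was -0.17 ± 0.08 (adjusted p = 0.0932). Since the bound and unbound library of a piece come from the same tissue, the piece was also fitted as a block. Pcdhgc3 then passed as lower in bound RNA in both microglial lines (-0.17 in the knockout line, adjusted p = 0.0118, and -0.15 in the heterozygous line, adjusted p = 0.0208). Pcdhac2 had differences of -0.04 and -0.02 in the knockout and heterozygous lines, Pcdhac1 of 0.11 and -0.24, Pcdhgc4 of -0.12 and -0.16 and Pcdhgc5 of 0.18 and 0.18, with adjusted p between 0.140 and 0.786.

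With the cortical piece as a block, 26 members were called in the astrocyte line, 15 in the heterozygous line and 20 in the knockout line, and no call was lost. Added in the astrocyte line were Pcdha9, Pcdha12, Pcdhb7, Pcdhb9 and Pcdhb22, all lower in bound RNA by 0.12 to 0.36 on the log2 scale. Added besides Pcdhgc3 were Pcdhb3 (0.35), Pcdhga3 (-0.18) and Pcdhga9 (-0.41) in the heterozygous line, and Pcdhb8 (0.26), Pcdhb13 (0.30), Pcdhgb7 (0.31) and Pcdhga3 (-0.21) in the knockout line.

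The ratio of bound to unbound RNA within each piece gives the same view by cluster. The summed beta CPM had a ratio of 1.34 ± 0.0761 in the knockout line (SD, n = 10 pieces, range 1.2 to 1.46), 1.34 ± 0.0916 in the heterozygous line (n = 8, range 1.17 to 1.5) and 1.06 ± 0.111 in the astrocyte line (n = 10). It lay above 1 in 10 of 10, 8 of 8 and 7 of 10 pieces. The summed alpha CPM had a ratio of 0.781 ± 0.0401 in the astrocyte line, below 1 in every piece, and of 0.988 ± 0.0838 and 0.983 ± 0.0686 in the knockout and heterozygous lines. The gamma ratio was 0.934 ± 0.0909 in the knockout line, 0.916 ± 0.0523 in the heterozygous line and 1.03 ± 0.061 in the astrocyte line. Deprived and control pieces overlapped in each of these ratios except the beta ratio of the heterozygous line, which was 1.17 to 1.32 in deprived and 1.34 to 1.5 in control pieces. By side letter the left pieces spanned 1.17 to 1.5 and the right pieces 1.32 to 1.38, which overlap. These sums were not tested.

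**Figure D3:**
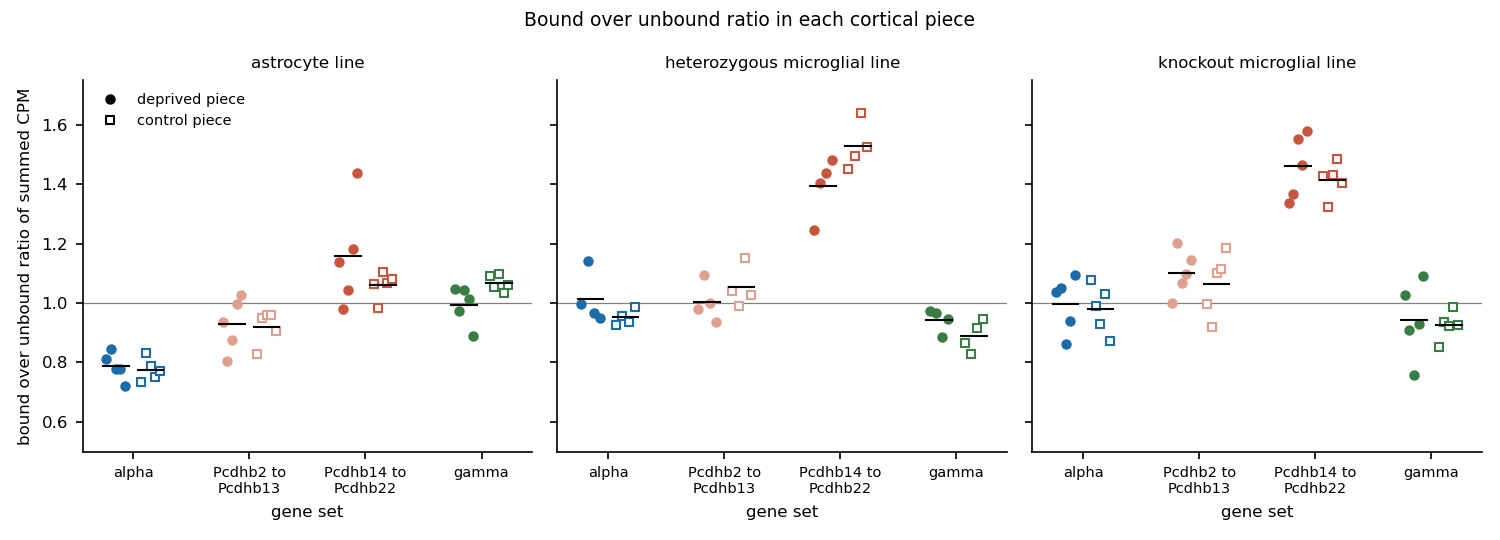
Ratio of summed CPM in bound RNA to that in unbound RNA for alpha, Pcdhb2 to Pcdhb13, Pcdhb14 to Pcdhb22 and gamma. Each point is 1 cortical piece of the astrocyte, heterozygous or knockout line, filled for deprived and open for control pieces, and black lines are means. The Pcdhb14 to Pcdhb22 points of both microglial lines lie above 1 and the alpha points of the astrocyte line below it. The Pcdhb2 to Pcdhb13 points lie on both sides of 1 in each line.

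The beta cluster was uneven along its length, as was seen after its values were known. Pcdhb2 to Pcdhb13, the 12 genes before the run, had a summed ratio of 1.08 in the knockout line, 1.03 in the heterozygous line and 0.924 in the astrocyte line. Pcdhb14 to Pcdhb22 had 1.44 ± 0.0855, 1.46 ± 0.112 and 1.11 ± 0.131. The 9 distal genes are longer, with a median exonic length of 5041 bases against 3518 bases, and had a higher median level in unbound RNA, 3.87 (astrocyte line), 1.90 (heterozygous) and 1.79 (knockout) CPM per kb, against 1.46, 0.852 and 0.803 CPM per kb. Across the 21 beta genes tested, which share libraries and are not independent, the log2 difference went with order along the chromosome at r = 0.51 (astrocyte line), 0.72 (heterozygous) and 0.77 (knockout), with exonic length at r = 0.57, 0.50 and 0.51 and with log2 level per kb at r = 0.26, 0.63 and 0.54. The part of length and level in the difference was not tested. Single-exon coding genes outside the clusters had medians of 0.09, -0.03 and -0.05 in the 3 lines (401, 424 and 435 genes). Taf7, a transcription-factor subunit gene that lies between the clusters, was lower in bound RNA, at -0.66, -0.82 and -0.77. Other genes within the clusters went the other way and were called higher in all 3 lines. These were Pcdhgb8 (0.84, 0.61 and 0.62), Gm26672 (0.61, 0.52 and 0.62) and Gm37446 (0.62, 0.90 and 0.67). Gm10544 was lower in the heterozygous and knockout lines (-1.11 and -0.73). Calls of the remaining neighbours were not shared between lines.

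Whether the astrocyte and heterozygous lines differ in these bound-to-unbound differences was tested directly, over the genes that both tables list. Of 54 members tested 11 differed, 3 with a higher and 8 with a lower difference in the astrocyte line, against 41.8% of 21503 genes, 24.7% with a higher and 17.1% with a lower difference. Pcdhgc3 had the smallest p, with a difference of differences of 0.68 ± 0.08 on the log2 scale (SE; adjusted p = 1.5e-09), and Pcdhgb5 (0.69 ± 0.21, adjusted p = 0.0065) and Pcdhga11 (0.34 ± 0.13, adjusted p = 0.0283) were the other members on that side. On the other side were Pcdhac2 (-0.42 ± 0.07, adjusted p = 1.6e-05) and 7 beta genes, Pcdhb7, Pcdhb16, Pcdhb17, Pcdhb19, Pcdhb20, Pcdhb21 and Pcdhb22, at -0.32 to -0.52. The median over all genes was 0.14, and over the alpha, beta and gamma genes -0.19, -0.20 and 0.16. With the piece as a block 15 were called, Pcdhb3, Pcdhb14, Pcdhga1 and Pcdhga9 in addition. Pcdhga11 lost its call under DESeq2, under its size factors and without the filter on low counts, and in 2 of 36 fits without 1 library, as did Pcdhb7 in 6 of 36. The lines differ in the tagged cell, in tamoxifen and in depth, and these cannot be told apart. Of 17 astrocyte markers 16 were higher in bound RNA of the astrocyte line (median 1.12), against 31.5% of all genes. In the heterozygous line 10 of 17 were lower (median -0.49), against 30.8% of all genes, and DESeq2 called 3 higher and 10 lower. Pcdhgc3 was called higher in the astrocyte line and was not called in the heterozygous line without the block. The part of these markers in the result was not tested.

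Between the knockout and heterozygous lines 0 of 53 members differed in the bound-to-unbound difference by edgeR or by DESeq2, against 0.0% of 20676 genes. At an unadjusted p under 0.05 there were 3 members, against 712 of all these genes. The differences of differences spanned -0.26 to 0.60. The molecule is labelled polyA RNA for the knockout and total RNA for the heterozygous libraries, and this cannot be told apart from the genotype.

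**Figure D4:**
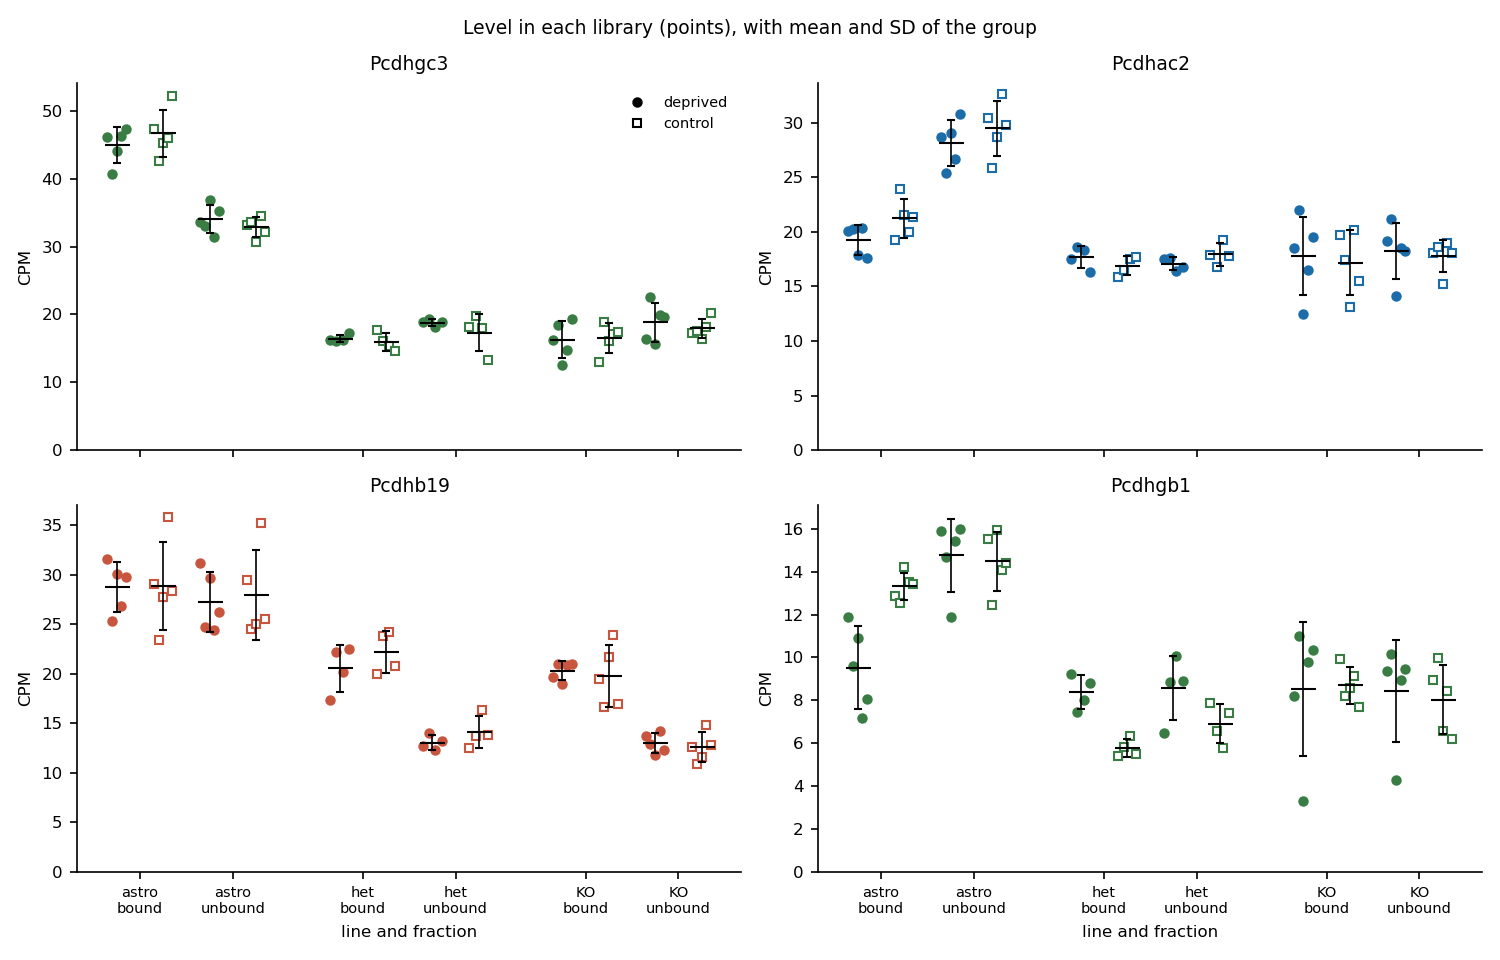
CPM of Pcdhgc3, Pcdhac2, Pcdhb19 and Pcdhgb1 in each library, by line, fraction and condition, with deprived left of control and a bar at each group mean. Pcdhgc3 and Pcdhac2 separate bound from unbound RNA in the astrocyte line, Pcdhb19 does so in the microglial lines, and Pcdhgb1 separates deprived from control in bound RNA of the heterozygous line.

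Whisker deprivation was asked by comparing deprived with control libraries within each line and fraction. Of 53 members (52 in unbound RNA of the astrocyte line) 0 were called in 5 of the 6 comparisons, and 1, Pcdhgb1, in bound RNA of the heterozygous line. The share of all genes called was 0.0% in both fractions of the astrocyte line, 10.3% in bound RNA of the heterozygous line (5.52% higher and 4.76% lower) and 3.75% in its unbound RNA (2.7% higher and 1.05% lower), and 0.00546% in bound and 0.038% in unbound RNA of the knockout line. The heterozygous shares became 0% and 0% by side letter, 4.12% and 1.62% without pieces 17R and 21L, and 0.654% and 1.04% in mice 14 and 15 alone, in bound and unbound RNA. The members with an unadjusted p under 0.05 numbered 4 and 7 in bound and unbound RNA of the astrocyte line. Over all genes 1067 of 17685 and 1043 of 16846 had such a p there. In the heterozygous line these were 2 and 5 members, against 4722 of 18001 and 3221 of 18073 genes. In the knockout line they were 3 and 1 members, against 690 of 18324 and 874 of 18421 genes. DESeq2 called 0 members in each of the 5 comparisons without a call. Absence of a call is not absence of a difference, and the sizes follow.

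Pcdhgb1, a gamma gene of the b type, had 9.22, 7.45, 8.00 and 8.82 CPM in the 4 deprived and 5.42, 5.84, 6.34 and 5.50 CPM in the 4 control bound libraries of the heterozygous line. The groups did not overlap, and the log2 difference was 0.54 ± 0.11 (SE; adjusted p = 0.011 by edgeR's quasi-likelihood test). It stayed called when any 1 library was left out, with differences of 0.49 to 0.59, and when pieces 17R and 21L were left out (0.57, adjusted p = 0.0414). All these fits keep mouse 17 among the deprived and mouse 21 among the control libraries. With pieces assigned by the side letter in place of the title the difference was 0.28 (adjusted p = 0.909), and in mice 14 and 15 alone 0.58 (adjusted p = 0.173). In unbound RNA of this line Pcdhgb1 had 6.47, 8.86, 10.1 and 8.89 CPM in deprived and 7.87, 6.58, 5.79 and 7.43 CPM in control libraries, which overlap (0.35, adjusted p = 0.198), and the deprivation effect did not differ between fractions beyond the threshold (difference 0.23 ± 0.19, adjusted p = 0.742).

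In the other lines Pcdhgb1 did not pass. In bound RNA of the astrocyte line it had 11.9, 9.62, 10.9, 7.15 and 8.07 CPM in deprived and 12.8, 12.6, 14.2, 13.5 and 13.4 CPM in control libraries. Every deprived library was lower, yet the difference of -0.49 ± 0.14 did not pass over all genes (adjusted p = 0.685). In bound RNA of the knockout line it had 8.21, 11, 3.28, 9.80 and 10.4 CPM in deprived and 9.93, 8.18, 8.57, 9.15 and 7.67 CPM in control libraries, with the lowest value in the deprived piece of mouse 18 and the deprived piece higher in 3 of 5 mice. Unbound RNA averaged 14.8 ± 1.70 CPM in deprived and 14.5 ± 1.37 CPM in control libraries of the astrocyte line, and 8.44 ± 2.37 CPM in deprived and 8.03 ± 1.59 CPM in control libraries of the knockout line (SD, n = 5 each). The knockout and heterozygous effects in bound RNA differed by -0.59 ± 0.30 (adjusted p = 0.324).

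Marker lists of other cell types and regions moved in the heterozygous line as well. In its bound RNA 9 of 18 microglial markers were higher in deprived libraries and 0 lower, with a summed level of 447 to 532 CPM in deprived and 247 to 372 CPM in control libraries. Hippocampal markers, 6 of 7 tested and called higher, summed to 1923 to 2683 CPM in deprived and 1426 to 1569 CPM in control libraries, and 6 of 17 astrocyte markers were higher. Of 8 thalamic markers 4 were higher and 1 lower, and of 20 neuronal markers 2 were higher and 5 lower. In unbound RNA 5 of 7 hippocampal, 4 of 8 thalamic and 4 of 17 astrocyte markers were higher. Without pieces 17R and 21L the bound calls were 4 of 18 microglial, 5 of 7 hippocampal, 3 of 17 astrocyte and 3 of 8 thalamic markers higher. By side letter 0 markers of any list were called in either fraction. The part of these markers in the Pcdhgb1 result was not tested. Regional marker sums also separated deprived from control libraries in bound RNA of the other lines. Hippocampal markers summed to 2897.7 to 3870.5 CPM in deprived and 1713.7 to 2704 CPM in control libraries of the astrocyte line. Thalamic markers summed to 237 to 248 CPM in deprived and 274 to 434 CPM in control libraries of the knockout line. The thalamic sums of the astrocyte line and the hippocampal sums of the knockout line overlapped.

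**Figure D5:**
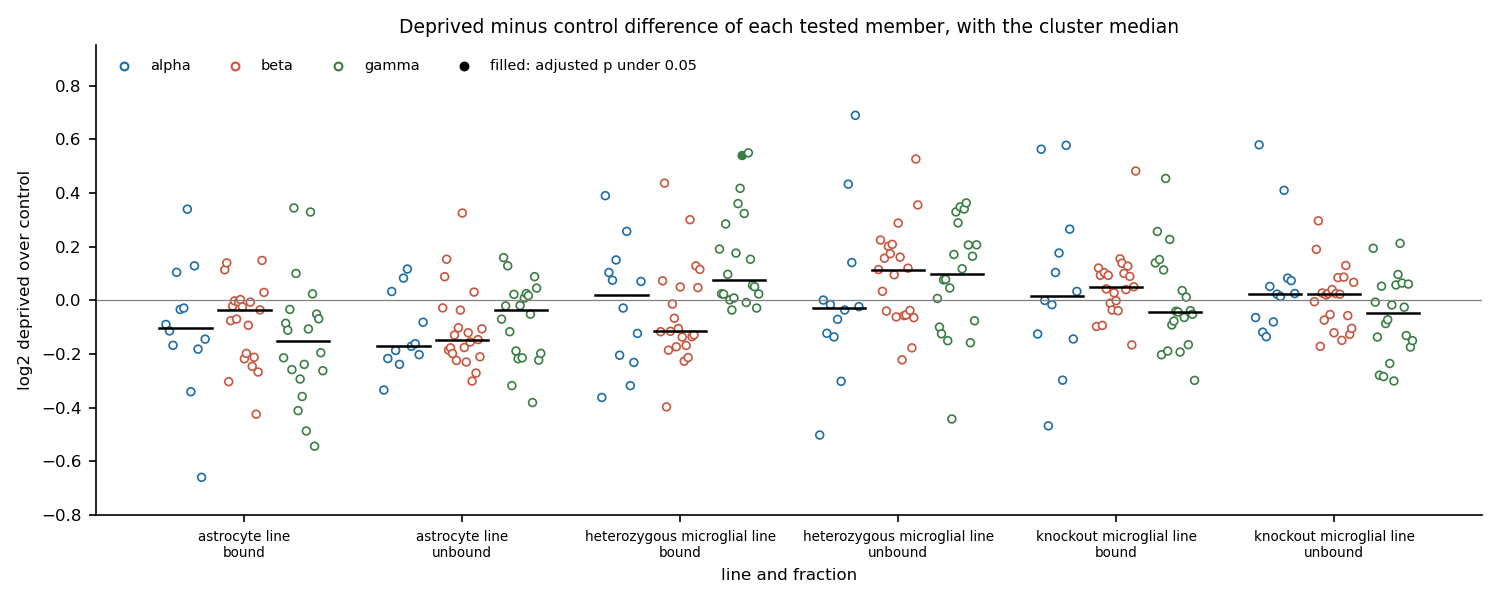
Log2 difference of deprived and control libraries for each member in bound and unbound RNA of the 3 lines. Points are grouped by cluster, in alphabetical order of gene names, and black lines mark the cluster medians. The filled point is the 1 member called, Pcdhgb1 in bound RNA of the heterozygous line. The medians of the 3 clusters lie between -0.17 and 0.11 in the 6 comparisons.

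By cluster, the median log2 differences of deprivation lay between -0.17 and 0.11. In bound RNA of the astrocyte line they were -0.10 for alpha, -0.04 for beta and -0.15 for gamma, with 12 of 53 members above 0, and in unbound RNA -0.17, -0.15 and -0.04, with 15 of 52 above 0. In the heterozygous line they were 0.02, -0.12 and 0.08 in bound and -0.03, 0.11 and 0.10 in unbound RNA, with 30 and 31 of 53 above 0. In the knockout line they were 0.02, 0.05 and -0.04 in bound and 0.02, 0.02 and -0.05 in unbound RNA, with 28 and 27 of 53 above 0. The median over all genes was within 0.01 of 0 in each comparison. Members of 1 cluster share libraries and are not independent, so these counts carry no test.

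The summed level of the gamma cluster was 160 ± 13.8 CPM in deprived and 177 ± 10.5 CPM in control bound libraries of the astrocyte line (SD over 5 libraries each), 90.5 ± 5.85 in deprived and 82.8 ± 2.78 CPM in control bound RNA of the heterozygous line (SD, n = 4 each), and 92.4 ± 20.5 in deprived and 91.1 ± 7.92 CPM in control bound RNA of the knockout line (SD, n = 5 each). The wide spread of the last deprived group comes with mouse 18, whose deprived bound library had 59.8 CPM for gamma and 28.9 CPM for alpha, the lowest of the 10 knockout bound libraries for each. The summed beta level was 258 ± 31.9 and 264 ± 32.2 CPM in deprived and control bound libraries of the astrocyte line, 166 ± 15.7 and 177 ± 15.6 CPM in the heterozygous line, and 175 ± 12.2 and 168 ± 21.1 CPM in the knockout line. The deprived and control ranges overlap in each of these sums.

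The C-type genes did not pass in any deprivation comparison. In bound RNA of the astrocyte line the log2 differences of Pcdhac1, Pcdhac2, Pcdhgc3, Pcdhgc4 and Pcdhgc5 were -0.66, -0.14, -0.07, -0.20 and -0.26, with adjusted p of 0.856 to 0.930. In bound RNA of the heterozygous line they were -0.12, 0.07, 0.05, -0.03 and 0.02, and in bound RNA of the knockout line -0.14, 0.03, -0.04, -0.05 and -0.30. Pcdhgc3 had 46.2, 40.7, 44, 46.3 and 47.4 CPM in deprived and 47.3, 42.6, 45.2, 46.0 and 52.1 CPM in control bound libraries of the astrocyte line, which overlap throughout. Pcdhac1 had 0.872, 0.944, 1.15 and 0.930 CPM in deprived and 0.390, 0.574, 0.673 and 0.858 CPM in control unbound libraries of the heterozygous line. These groups do not overlap, but the difference of 0.69 ± 0.27 did not pass (adjusted p = 0.18).

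A few further members separated the groups without passing, and they are named because of it. Pcdhga3 had 18.8, 19.2, 19.9, 14.8 and 16.9 CPM in deprived and 21.3, 20.2, 22.9, 21.1 and 21.0 CPM in control bound libraries of the astrocyte line (log2 difference -0.26, adjusted p = 0.740). Pcdhb17 had 26.0, 22.8, 26.3, 24.3 and 25.2 CPM in deprived and 27.7, 26.7, 27.1, 34.8 and 28.9 CPM in control unbound libraries of that line (-0.22, adjusted p = 0.678). Pcdhb21 was likewise lower in every deprived unbound library of the heterozygous line (-0.22, adjusted p = 0.427). With Pcdhgb1 and Pcdhac1 above, the members whose groups did not overlap numbered 2 and 1 in bound and unbound RNA of the astrocyte line, 1 and 2 in the heterozygous line and 0 and 0 in the knockout line. Over all genes tested the shares without overlap were 1.18% and 0.932% in bound and unbound RNA of the astrocyte line, 17.0% and 13.1% in the heterozygous line and 0.589% and 0.841% in the knockout line.

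The effect of deprivation did not differ between bound and unbound RNA for any member in any line by edgeR or DESeq2. Over all genes edgeR called 0.0% in each line. At an unadjusted p under 0.05 there were 2, 0 and 1 members in the astrocyte, heterozygous and knockout lines. Over all genes 546 of 18324, 1904 of 19275 and 335 of 19681 had such a p. For the heterozygous line DESeq2 called 170 of 19275 genes and the fit with the piece as a block 243, and 0 members in both. Nor did 1 member pass between the knockout and heterozygous lines in either fraction. Of all genes 0.51% were called in bound RNA and 1.79% in unbound RNA, 1.28% with a lower effect in the knockout line. At an unadjusted p under 0.05 there were 0 of 53 members in bound RNA, against 3380 of 19601 genes. In unbound RNA there were 4 of 53 members, against 3385 of 19278 genes. DESeq2 called 0 members in both.

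Genes that act on or with the clusters were described from lists, whose counts between bound and unbound RNA are read against the shares of all genes called, 31.5% higher and 27.6% lower in the astrocyte line, 31.8% and 30.8% in the heterozygous line and 31.6% and 30.4% in the knockout line. Of 11 genes of CTCF and the cohesin machinery, which bring a chosen protocadherin promoter to its enhancer, 2 were higher and 7 lower in bound RNA of the astrocyte line, 5 and 4 in the heterozygous line and 5 and 3 in the knockout line. Ctcf was lower in bound RNA in each (-0.66, -0.87 and -0.82 on the log2 scale), whereas the cohesin loader gene Nipbl was higher in the heterozygous and knockout lines (1.02 and 0.98), as was the cohesin core gene Smc1a (0.79 and 0.76). Of 10 genes that silence the clusters through DNA methylation or chromatin, 4 were higher and 4 lower in the astrocyte line, 6 and 1 in the heterozygous line and 5 and 1 in the knockout line. The maintenance methyltransferase gene Dnmt1 was higher in the heterozygous and knockout lines (0.74 and 0.66), and Trim28, a corepressor gene, was lower in all 3 (-0.29, -0.54 and -0.56).

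Of 15 genes downstream of the cytoplasmic part, among them the WAVE complex that drives actin branching, 3 were higher and 9 lower in bound RNA of the astrocyte line, and 5 were higher and 7 lower in each microglial line. Abi1, a WAVE complex subunit, was lower in all 3 (-0.58, -0.57 and -0.60, in the order astrocyte, heterozygous, knockout), and Axin1, the Wnt pathway scaffold that Pcdhgc3 binds, was higher in the heterozygous and knockout lines (0.87 and 0.84). Of 6 partners and proteases at the cell surface, 1 was higher and 2 lower in the astrocyte line, 2 and 1 in the heterozygous line and 2 and 2 in the knockout line. Among them Nlgn2, a synaptic adhesion gene, was higher in the astrocyte and heterozygous lines (0.49 and 0.69). Of 12 protocadherins outside the clusters, 1 was higher and 4 lower in the astrocyte line, 6 and 0 in the heterozygous line and 7 and 0 in the knockout line, with Pcdh19, an epilepsy gene, at 0.44 and 0.49 in the heterozygous and knockout lines.

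Under deprivation 0 genes of these 5 lists were called by edgeR or DESeq2 in the astrocyte and knockout lines. At an unadjusted p under 0.05 a list held 0 to 2 genes there, apart from 8 of the 12 protocadherins outside the clusters in unbound RNA of the astrocyte line. Over all genes 1043 of 16846 had such a p in that comparison. In bound RNA of the heterozygous line 0 of the 11 CTCF and cohesin genes passed by edgeR, with 1 at an unadjusted p under 0.05, and 1 passed by DESeq2. Among protocadherins outside the clusters 2 were higher in deprived libraries, Pcdh20 (1.02) and Pcdh8 (0.74), and 3 were lower, Pcdh9 (-0.44) and Pcdh7 (-0.31) among them. In unbound RNA of that line Pcdh20 (1.14) and Pcdh8 (0.58) were again higher and Pcdh9 (-0.26) lower. Of the 15 downstream genes 3 were higher and 1 lower in bound RNA, with Cyfip1, a WAVE complex subunit, at 0.43, and 1 was higher in unbound RNA. Lower in bound RNA were also 2 of the 10 silencing genes and 1 of the 6 surface partners and proteases. The shares of all genes called were 5.52% higher and 4.76% lower in bound RNA, and 2.7% and 1.05% in unbound RNA. By side letter these calls were lost in both fractions, with Pcdh20 at 0.53, Pcdh8 at 0.48, Pcdh9 at -0.20, Pcdh7 at -0.06 and Cyfip1 at 0.26 in bound RNA (adjusted p 0.909 or more). Without pieces 17R and 21L, Pcdh20 (1.04), Pcdh8 (0.81), Pcdh9 (-0.43) and Cyfip1 (0.46) passed in bound RNA and Pcdh7 (-0.25) did not, and in unbound RNA Pcdh20 (1.08) and Pcdh8 (0.71) passed and Pcdh9 (-0.26) did not. The hippocampal marker values of the heterozygous line given above stand beside these calls too, and their part was not tested.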

How the data were processed

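RNA from bound and unbound fractions of ribosome pulldowns was measured in 56 libraries, grouped by title. The authors deposited raw read counts per Ensembl gene in 3 tables, 1 per line, and per the submitters' processing notes used featureCounts 2.0.0, HISAT2 2.2.0, FastQC 0.11.9, cutadapt 2.9 and Trim Galore 0.6.4 with GRCm38 (mm10). Counting settings are not given in the sources used here. Exon positions and lengths came from GENCODE vM21.

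The tests ran on these counts in edgeR 4.0.16 under R 4.3.3 (TMM, filterByExpr on the groups fitted, two-sided quasi-likelihood F test, Benjamini-Hochberg adjustment over all genes tested, threshold 0.05), for 16 comparisons. DESeq2 1.42.0 gave an alternative. Deprivation was fitted within each line and fraction, bound against unbound RNA over the 4 groups of a line, and differences between lines over 8 groups, without covariates. CPM used TMM library sizes over all libraries of a line, and levels per kb the exonic bases shared with no other gene. A further 362 fits tried other normalization, no filter, DESeq2, blocks, other assignments of heterozygous pieces and each library left out. The scripts were tested on simulated counts with 200 genes changed. Numbers in the knockout titles are mice, and same-mouse libraries deviated together in 5 of 5 mice in each fraction. Bound and unbound libraries of a piece deviated together in all 10, 8 and 10 pieces of the astrocyte, heterozygous and knockout lines. The labels do not say whether astrocyte pieces came from separate animals, so p-values measure the spread between libraries.

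The text names the C-type genes in every comparison, the highest and lowest gene per length of each cluster, every member called (above 10, the 5 largest and 5 smallest log2 differences), and up to 4 called genes per pathway list. The members and lists were chosen with earlier results of these data known. Not tested for low counts were Pcdha4, Pcdhb1, Pcdhga10 and, except in the comparison of the astrocyte and heterozygous lines, Pcdha11 (ENSMUSG00000102206), nor Pcdha1 under deprivation in unbound RNA of the astrocyte line. Python 3.11.15 with pandas 2.3.3 and matplotlib 3.10.9 made summaries and figures.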

Additional observations from a re-analysis of the deposited data

Results flagged for a closer look

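In 5 of 96 groups of C-type gene levels and cluster sums, the highest or lowest library stood farther from its nearest neighbour than Dixon's test allows at 95%, which chance gives in about 1 of 20 groups. The summed beta level was 304 CPM in control library 4 of unbound astrocyte-line RNA. Pcdhac1 was low in control library 2 of that group, at 0.603 CPM, and in the control bound library of knockout mouse 18, at 0.578 CPM. Pcdhgc5 had 3.21 CPM in the control bound library of knockout mouse 12, and Pcdhac2 15.3 CPM in the control unbound library of knockout mouse 18.

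The bound-to-unbound difference was tested to differ between the astrocyte and heterozygous lines, and the 11 of 54 members called are listed. Over all genes 41.8% of 21503 were called. On the log2 scale the difference was higher in the astrocyte line for Pcdhgb5 (0.69), Pcdhgc3 (0.68) and Pcdhga11 (0.34). It was lower there for Pcdhb17 (-0.32), Pcdhb20 (-0.32), Pcdhac2 (-0.42), Pcdhb22 (-0.42), Pcdhb7 (-0.44), Pcdhb21 (-0.45), Pcdhb16 (-0.50) and Pcdhb19 (-0.52).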

How the results depend on the processing

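Members called between bound and unbound RNA numbered 19 to 26 over the other settings in the astrocyte line, 11 to 15 in the heterozygous line and 15 to 20 in the knockout line, and 15 to 21, 10 to 13 and 13 to 16 with 1 library left out. The difference of the astrocyte and heterozygous lines gave 11 to 15 and 10 to 13. The cortical piece as a replicate block gave 26, 15, 20 and 15. Under deprivation the block on the replicate number changed no count. In the heterozygous line this number pairs 17L with 21L and 17R with 21R, so the block does not follow the mouse there. The count of 1 in bound heterozygous RNA became 0 with pieces assigned by side letter and 0 with mice 14 and 15 alone, and stayed 1 with any library left out. The other 5 stayed at 0. Over fits that left out 1 library, 102 of 1300 values of called members missed the threshold. Of 59 calls over the 5 comparisons with calls, in which a member can count more than 1 time, 7 were lost without a filter, 3 with other size factors and 2 with DESeq2.

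Several C-type differences near 0 changed sign, and the cause was not tested. In bound heterozygous RNA under deprivation, by side letter, without 17R and 21L, and with mice 14 and 15 alone, Pcdhgc4 (-0.03) had 0.11, 0.055 and 0.18 and Pcdhgc5 (0.02) had -0.17, -0.086 and -0.11. Pcdhgc3 (0.05) had -0.031 by side letter and -0.049 in those mice, and Pcdhac1 (-0.12) had 0.53 in those mice. In unbound heterozygous RNA Pcdhac2 (-0.02) had 0.058, 0.019 and 0.068 and Pcdhgc4 (-0.08) 0.12 by side letter and 0.026 without 17R and 21L. Without knockout mice 7 and 18, Pcdhgc4 had 0.004 in bound and Pcdhgc5 0.029 in unbound RNA. Without the filter, Pcdhac2 had 0.02 between bound and unbound heterozygous RNA.

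With 1 library left out, deprivation differences in unbound knockout RNA ranged from -0.047 to 0.19 for Pcdhac1, -0.035 to 0.105 for Pcdhac2 and -0.014 to 0.12 for Pcdhgc3. In bound knockout RNA they ranged from -0.054 to 0.14 for Pcdhac2, -0.11 to 0.045 for Pcdhgc3 and -0.15 to 0.063 for Pcdhgc4. In bound heterozygous RNA they ranged from -0.35 to 0.21 for Pcdhac1, -0.13 to 0.052 for Pcdhgc4 and -0.12 to 0.11 for Pcdhgc5, and in unbound RNA from -0.066 to 0.008 for Pcdhac2. The bound-to-unbound difference of Pcdhac2 in the heterozygous line ranged from -0.029 to 0.004. Members with few counts, such as Pcdhac1, limit what a missing call shows.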
